A study of Homo sapiens with 12 samples.

Results

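The genes described here are the transcription factors of epithelial-mesenchymal transition (EMT) SNAI1, SNAI2, TWIST1, TWIST2, ZEB1, ZEB2 and PRRX1, together with VIM, which encodes vimentin. They were taken by symbol, matched through their Ensembl identifiers, and make up 8 of the 60660 gene identifiers in the count table. All but PRRX1, 7 in number, had enough counts to be tested among 21803 genes. RNA was sequenced in bulk from cells labelled HS578T, an established breast cancer cell line with a mesenchymal, triple-negative phenotype, in 4 groups of 3 libraries, all taken at 48 h. The first group had 1 copy of the short arm of chromosome 17 knocked out (titled 17PKO) and received 1 µM doxorubicin, and the second was 17p-intact (titled Cas9, genotype WT) and received 170 nM. The third group had the same deletion and received DMSO, and the fourth was intact and received DMSO. Doxorubicin is an anthracycline that poisons DNA topoisomerase II. The labels do not say whether the deleted cells are 1 clone or a pool, so any other difference between the cell populations goes with the genotype. The doses differ by a ratio of 5.88, so genotype and dose cannot be told apart in any comparison that sets the treated groups against each other.

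EMT is the programme by which epithelial cells lose cell-cell junctions and apical-basal polarity and gain a motile, matrix-producing state. It operates in development and wound repair and is engaged in part in many carcinomas. SNAI1 and SNAI2 are zinc-finger repressors that bind E-box sequences in the promoters of junction genes. ZEB1 and ZEB2 bind similar sequences through their zinc-finger clusters and repress, and are repressed by, microRNAs of the miR-200 family. TWIST1 and TWIST2 are basic helix-loop-helix factors that pair with E proteins. PRRX1 is a paired-related homeobox factor of mesenchyme, and vimentin is the intermediate filament protein that is the customary marker of the mesenchymal state.

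Library totals were 66150539 to 99142099 counts, and levels are given in CPM, counts per 1000000 after scaling by the trimmed mean of M values. A gene without counts could have had up to 3, or 0.0305 to 0.0444 CPM, and such floors cover counting error only. Some markers of the labelled phenotype were looked at in all 12 libraries: VIM had 990 to 2526 CPM and CDH2, the mesenchymal cadherin, 167 to 416 CPM. CDH1, the epithelial cadherin, had at most 0.441 CPM, EPCAM at most 0.315 CPM and the oestrogen receptor gene ESR1 at most 0.167 CPM. Epithelial genes were not off as a set. Of 32 listed, 17 to 20 averaged at least 1 CPM in each group, and the 32 summed to 234 to 442 CPM per library. The progesterone receptor gene PGR had at most 0.0768 CPM. ERBB2 was not looked at, so triple-negative status was checked only in part. A check of chromosome-specific transcripts went against the recorded karyotype of this line in 12 of 12 libraries, so the cells are called only what the labels call them. The share of mitochondrial counts was 6.90% for replicate 2 of deleted cells in DMSO and 5.54% for replicate 1 of intact cells in 170 nM, against 2.61% to 3.57% elsewhere. In these libraries the deviation of genes from their group mean also fell with transcript GC content (Spearman rho -0.508 and -0.442 across genes, which are not independent replicates). The deviation rose with GC content in replicate 2 of intact cells in 170 nM (0.481) and in replicates 1 and 3 of deleted cells in DMSO (0.353 and 0.431), and deviations within a group balance each other. ZEB1 and ZEB2, whose transcripts have 38.5% and 39.1% GC, were each at their highest in their group in the 2 libraries of high mitochondrial share, and at their lowest in replicate 2 of intact cells in 170 nM and replicate 3 of deleted cells in DMSO. Their values are given below with and without the first 2. Whether replicate libraries are from separate cultures is not labelled, and the p-values therefore reflect no more than how far these samples, perhaps technical repeats, lie apart. In bulk RNA fewer cells that express a gene and less of its RNA per cell cannot be told apart.

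**Figure D1:**
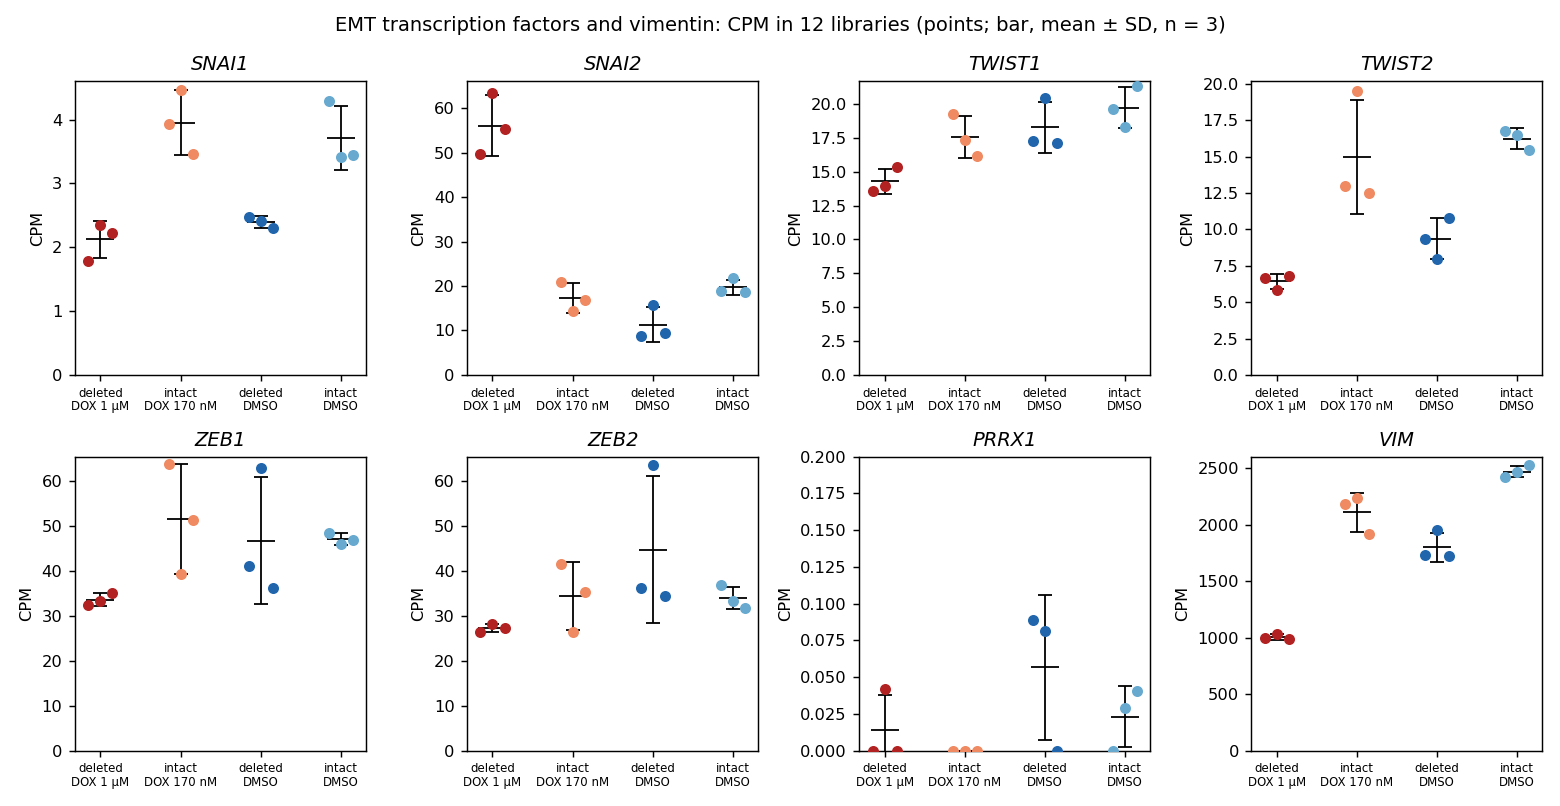
Levels of the 8 genes in every library, in CPM on a linear axis that starts at 0; points are libraries and bars the mean ± SD of 3 libraries. SNAI2 stood at 49.6 to 63.3 CPM in deleted cells in 1 µM doxorubicin and at no more than 21.7 CPM in any other library. VIM was lowest in that same group, and PRRX1 stayed at or under 0.0888 CPM.

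In deleted against intact cells in DMSO, 4 of the 7 tested genes fell, namely SNAI1, SNAI2, TWIST2 and VIM (edgeR quasi-likelihood test, Benjamini-Hochberg adjusted p under 0.05), and none rose. Over all genes tested 34.9% passed, 18.8% higher and 16.2% lower, and the libraries of 49.5% did not overlap, as for the same 4 genes here. In deleted cells given 1 µM doxorubicin against the same cells in DMSO, SNAI2 rose and TWIST1, TWIST2, ZEB2 and VIM fell. That is 5 of 7 genes, against 30.7% of all genes, of which 17.5% were higher and 13.1% lower. In intact cells given 170 nM against DMSO none of the 7 passed in edgeR, DESeq2 or limma-voom, and 1, VIM, had an unadjusted p under 0.05 in edgeR. Over all genes 0.0596% passed, 0.0275% higher and 0.0321% lower, and 2504 genes had an unadjusted p under 0.05. Between the treated groups, 1 µM deleted against 170 nM intact, SNAI2 rose and SNAI1, TWIST1, TWIST2, ZEB1 and VIM fell. That is 6 of 7 genes, against 47.8% of all genes, 25.9% higher and 21.9% lower, and libraries that do not overlap in 57.1%. The difference of the doxorubicin effects, deleted less intact, passed for SNAI2, upward, and VIM, downward. That is 2 of 7 genes, against 17.0% of all genes, 10.3% upward and 6.74% downward. The median log2 fold change of the 7 genes was -0.46, -0.48, -0.11, -0.62 and -0.43 in these comparisons in the order given, beside 0.04, -0.02, 0.01, 0.02 and -0.03 over all genes. The comparisons share control libraries and are not independent of each other.

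**Figure D2:**
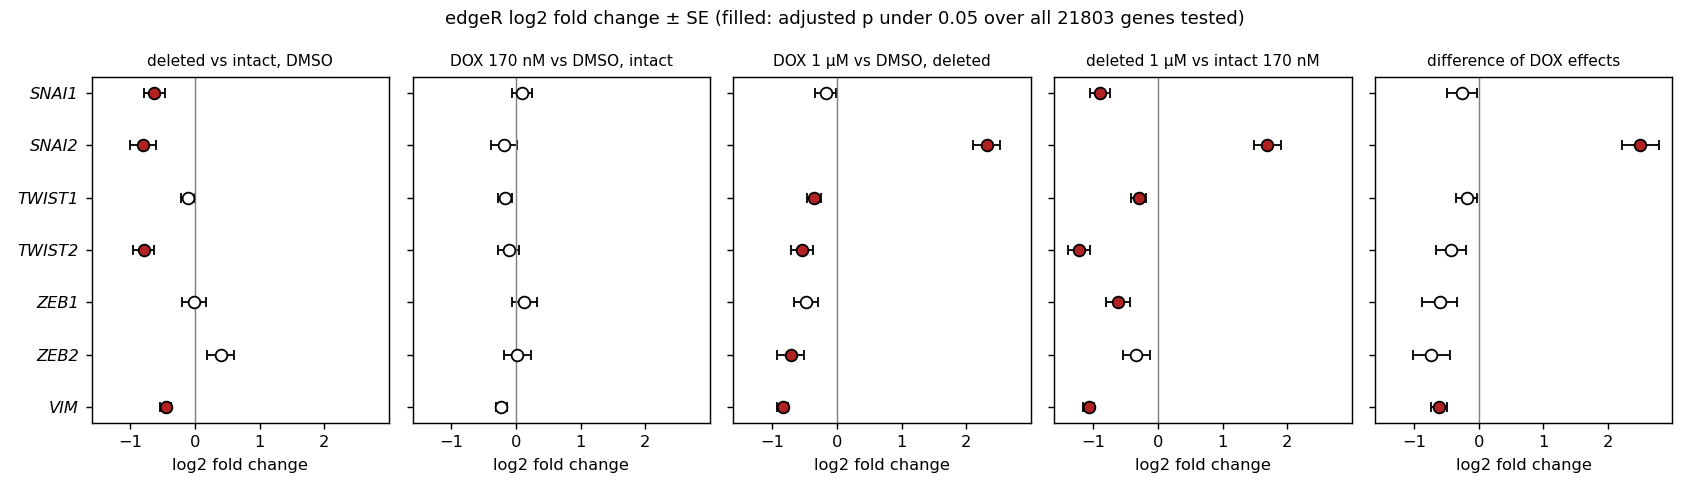
Log2 fold change of each tested gene in each comparison, with bars for the standard error of the edgeR fit; filled points passed an adjusted p of 0.05 over all 21803 genes. SNAI2 is the only gene with a filled point to the right of 0, in the 3 comparisons that involve deleted cells in 1 µM doxorubicin, and it lies to the left of 0 in DMSO.

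SNAI2 (ENSG00000019549.13; hg38 chromosome 8, 48917604 to 48921740, minus strand) encodes Slug, a repressor also known from neural crest migration. It had 49.6, 63.3 and 55.2 CPM in deleted cells in 1 µM doxorubicin and 20.9, 14.4 and 16.8 CPM in intact cells in 170 nM. It had 8.73, 15.8 and 9.33 CPM in deleted cells in DMSO and 18.8, 21.7 and 18.6 CPM in intact cells in DMSO. The 3 libraries of deleted cells in 1 µM lay above every other library, and in DMSO the deleted libraries lay below the intact ones. The increase in deleted cells with 1 µM was 4.97-fold (log2 fold change 2.31, SE 0.21, edgeR adjusted p = 1.8e-06). Treated deleted cells stood 3.23-fold above treated intact cells (log2 fold change 1.69, SE 0.20, edgeR adjusted p = 1.33e-05). In DMSO, without a dose difference, SNAI2 was lower by 0.80 on the log2 scale in deleted cells (SE 0.20, edgeR adjusted p = 0.00736). In intact cells 170 nM gave a log2 fold change of -0.18 (SE 0.20, adjusted p = 0.771), and the difference of the 2 doxorubicin effects was 2.50 (SE 0.29, edgeR adjusted p = 4.08e-05). Every call on SNAI2 held under each alternative setting and without each library; the DMSO value ran from -0.65 without a single library to -1.16 with both libraries of high mitochondrial share left out, in which SNAI2 was also at its highest in its group.

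SNAI1 (ENSG00000124216.4; hg38 chromosome 20, 49982999 to 49988886, plus strand) encodes Snail, the paralog of Slug that is chiefly controlled through rapid degradation of its protein. It had 1.79, 2.35 and 2.22 CPM in deleted cells in 1 µM and 3.93, 4.47 and 3.47 CPM in intact cells in 170 nM. It had 2.47, 2.42 and 2.30 CPM in deleted cells in DMSO and 4.29, 3.41 and 3.44 CPM in intact cells in DMSO. The 6 deleted libraries thus lay below the 6 intact ones, in both treatments, while within each genotype the treated and DMSO libraries overlapped. SNAI1 fell by 0.63 on the log2 scale in deleted cells in DMSO (SE 0.16, edgeR adjusted p = 0.00809) and by 0.89 between the treated groups (SE 0.16, edgeR adjusted p = 0.000438). Neither doxorubicin effect passed, with log2 fold changes of -0.17 (SE 0.16, adjusted p = 0.473) for 1 µM in deleted cells and 0.09 (SE 0.16, adjusted p = 0.871) for 170 nM in intact cells, and the difference of the effects was -0.26 (SE 0.23, adjusted p = 0.484). The difference was -0.63 (edgeR adjusted p = 0.0543) with the trend in GC content removed and -0.14 without replicate 1 of deleted cells in 1 µM. With the trend in GC content removed the 1 µM value was -0.44 (edgeR adjusted p = 0.0483; over all alternatives the adjusted p ran from 0.0483 to 0.826).

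The balance of the 2 Snail paralogs differed between groups. Per kb of exon, SNAI2 stood at 13.8, 13.4 and 12.3 times SNAI1 in deleted cells in 1 µM (13.2 ± 0.741, SD, n = 3), against 1.76, 3.24 and 2.02 times in deleted cells in DMSO (2.34 ± 0.795). The ratio was 2.22 ± 0.551 in intact cells in 170 nM and 2.68 ± 0.491 in intact cells in DMSO (SD, n = 3 each). The deleted libraries in 1 µM lay far outside the range of the other 9, which ran together. TWIST1 stood at 2.06 ± 0.158 times TWIST2 in deleted cells in 1 µM and at 1.13 ± 0.280 times in intact cells in 170 nM. In DMSO the ratio was 1.85 ± 0.469 in deleted cells and 1.13 ± 0.130 in intact cells, and in both treatments the deleted libraries lay above the intact ones. ZEB1 stood at 3.55 ± 0.155 times ZEB2 in deleted cells in 1 µM and 4.31 ± 0.111 times in intact cells in 170 nM, and at 3.06 ± 0.213 times in deleted and 4.02 ± 0.228 times in intact cells in DMSO, with the deleted libraries below the intact ones in both treatments. Unlike the level of either ZEB gene, this ratio kept the libraries of a group close together. The size of each ratio depends on the length used, which scales all libraries alike. Over the longest annotated transcript, ZEB1 over ZEB2 averaged 1.87 in deleted cells in 1 µM, 2.28 in intact cells in 170 nM, and 1.61 in deleted and 2.12 in intact cells in DMSO. SNAI2 over SNAI1 was then 18.4 in deleted cells in 1 µM and 3.10 to 3.74 in the other groups. The ratios are given as a description, without a test.

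**Figure D3:**
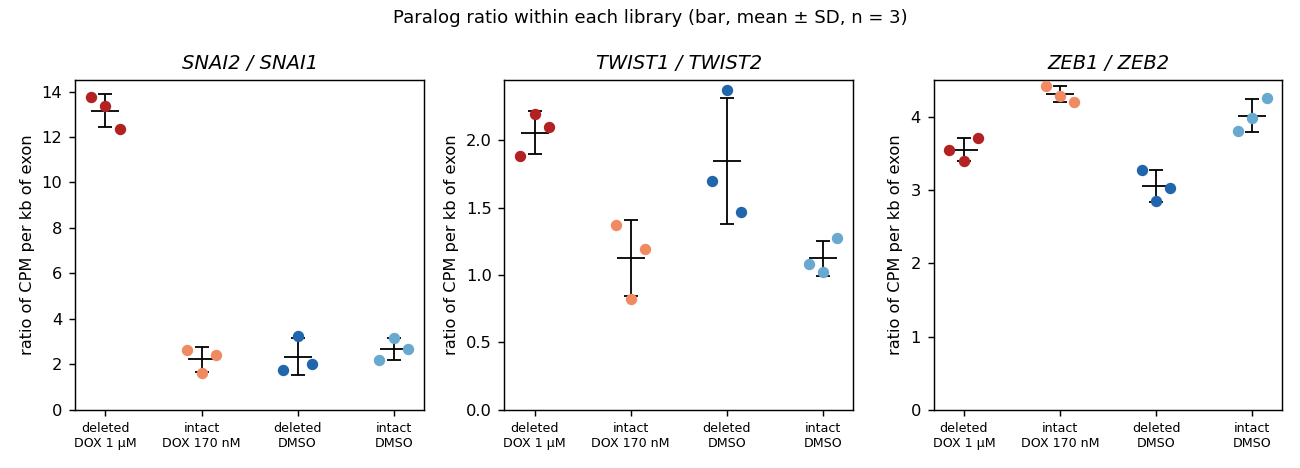
Ratio of each pair of paralogs within every library, from CPM per kb of all annotated exons, on a linear axis from 0. Points are libraries and bars the mean ± SD of 3 libraries. SNAI2 over SNAI1 separates deleted cells in 1 µM doxorubicin (12.3 to 13.8) from the rest (1.60 to 3.24), whereas the other 2 ratios separate deleted from intact cells in each treatment.

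TWIST2 (ENSG00000233608.4; hg38 chromosome 2, 238848032 to 238910543, plus strand), also called Dermo1, is a factor of dermal and limb mesenchyme. It had 6.65, 5.87 and 6.77 CPM in deleted cells in 1 µM and 13, 19.5 and 12.5 CPM in intact cells in 170 nM. It had 9.37, 7.97 and 10.8 CPM in deleted cells in DMSO and 16.8, 16.5 and 15.5 CPM in intact cells in DMSO. Deleted libraries lay below intact ones in both treatments, and deleted libraries in 1 µM lay below those in DMSO. TWIST2 fell by 0.79 on the log2 scale in deleted cells in DMSO (SE 0.17, edgeR adjusted p = 0.00216) and by 1.22 between the treated groups (SE 0.17, edgeR adjusted p = 4.03e-05). It fell by 0.54 with 1 µM in deleted cells (SE 0.17, edgeR adjusted p = 0.024). The call was lost without deleted DMSO replicate 1 (-0.55, adjusted p = 0.0541) or 3 (-0.43, adjusted p = 0.099). It was also lost without replicate 1 (-0.57, adjusted p = 0.0517) or 2 (-0.48, adjusted p = 0.0909) of deleted cells in 1 µM. The adjusted p over all alternatives ran from 7.57e-05 to 0.099. The effect of 170 nM was -0.11 (SE 0.16, adjusted p = 0.837), and the difference of the effects was -0.43 (SE 0.23, adjusted p = 0.239). The difference passed with both libraries of high mitochondrial share left out (-0.64, edgeR adjusted p = 0.0471) and with the trend in GC content removed (-0.75, edgeR adjusted p = 0.00327), and it was -0.20 without replicate 2 of intact cells in 170 nM (adjusted p = 0.501).

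TWIST1 (ENSG00000122691.13; hg38 chromosome 7, 19020991 to 19117672, minus strand) is the paralog required for cranial mesenchyme and suture formation. It had 13.6, 13.9 and 15.4 CPM in deleted cells in 1 µM and 19.2, 17.3 and 16.2 CPM in intact cells in 170 nM. It had 17.3, 20.5 and 17.2 CPM in deleted cells in DMSO and 19.6, 18.3 and 21.3 CPM in intact cells in DMSO. Deleted cells in 1 µM were lowest and did not overlap another group, and the other 3 groups overlapped. TWIST1 fell by 0.36 on the log2 scale with 1 µM in deleted cells (SE 0.11, edgeR adjusted p = 0.0272) and by 0.30 between the treated groups (SE 0.11, edgeR adjusted p = 0.0411), and both values lay near the threshold. The call for 1 µM was lost without deleted DMSO replicate 2 (-0.28, adjusted p = 0.0676) and without replicate 1 (-0.32, adjusted p = 0.1) or 2 (-0.34, adjusted p = 0.0864) of deleted cells in 1 µM. The call between the treated groups was lost without replicate 1 (-0.31, adjusted p = 0.0822) or 2 (-0.32, adjusted p = 0.0716) of deleted cells in 1 µM. It was also lost without replicate 1 of intact cells in 170 nM (-0.27, adjusted p = 0.0931) and without intact DMSO replicate 1 (-0.30, adjusted p = 0.0581). With no filter both calls were lost (adjusted p = 0.0769 and 0.0894), and with library totals the second was (-0.21, adjusted p = 0.0962). Both values were larger with the trend in GC content removed, at -0.62 and -0.57. Adjusted p over the alternatives ran from 0.00221 to 0.1 for 1 µM and from 0.00254 to 0.0962 between the treated groups. No effect passed in DMSO (-0.11, SE 0.11, adjusted p = 0.485), for 170 nM (-0.17, SE 0.11, adjusted p = 0.59) or in the difference of the effects (-0.19, SE 0.16, adjusted p = 0.47). The difference was -0.56 and passed with the trend in GC content removed (edgeR adjusted p = 0.0453), and it was -0.04 with both libraries of high mitochondrial share left out (adjusted p = 0.872). The exons of TWIST1 share 141 bases, 6.94% of their length, with the antisense transcript AC003986.2, and the strand setting of the counting is not given in the sources used here.

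ZEB1 (ENSG00000148516.22; hg38 chromosome 10, 31318495 to 31529814, plus strand) is a zinc-finger homeodomain repressor of epithelial genes. It had 32.3, 33.2 and 35.1 CPM in deleted cells in 1 µM and 63.7, 39.2 and 51.3 CPM in intact cells in 170 nM. It had 41.1, 62.7 and 36.1 CPM in deleted cells in DMSO and 48.4, 45.9 and 46.8 CPM in intact cells in DMSO. Deleted cells in 1 µM lay below all other libraries, while intact cells in 170 nM and deleted cells in DMSO spread on both sides of intact cells in DMSO. ZEB1 fell by 0.62 on the log2 scale between the treated groups (SE 0.19, edgeR adjusted p = 0.0157). For 1 µM in deleted cells the log2 fold change was -0.48 (SE 0.19, edgeR adjusted p = 0.0744), although the libraries did not overlap, as for 45.3% of all genes. It passed without deleted DMSO replicate 3 (-0.63, adjusted p = 0.025) and without replicate 1 (adjusted p = 0.0461) or 2 (adjusted p = 0.0327) of intact cells in 170 nM, and also with the trend in GC content removed (adjusted p = 0.00236) or no filter (adjusted p = 0.00218). The value was smaller, at -0.22, without deleted DMSO replicate 2 (adjusted p = 0.294) and, at -0.21, with both libraries of high mitochondrial share left out (adjusted p = 0.155). Between the treated groups it was -0.48 with those 2 libraries left out and still passed (edgeR adjusted p = 0.00186). The adjusted p for 1 µM over all alternatives ran from 0.00218 to 0.294. In DMSO the value was -0.01 (SE 0.19, adjusted p = 0.969). With both libraries of high mitochondrial share left out it was -0.32 (edgeR adjusted p = 0.0362), and over all alternatives the adjusted p ran from 0.0362 to 0.986. The 170 nM effect was 0.13 (SE 0.19, adjusted p = 0.841) and the difference of the effects -0.60 (SE 0.27, adjusted p = 0.146). The difference passed without replicate 2 of intact cells in 170 nM (-0.76, adjusted p = 0.0347), with the GC trend removed (adjusted p = 0.00988) and with no filter (adjusted p = 0.0208). It was -0.34 without deleted DMSO replicate 2 (adjusted p = 0.276) and -0.17 with both libraries of high mitochondrial share left out (adjusted p = 0.501), where the 170 nM effect was -0.05 (adjusted p = 0.892).

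ZEB2 (ENSG00000169554.22; hg38 chromosome 2, 144364364 to 144524583, minus strand), the paralog that is mutated in Mowat-Wilson syndrome, had 26.4, 28.3 and 27.4 CPM in deleted cells in 1 µM and 41.7, 26.5 and 35.3 CPM in intact cells in 170 nM. It had 36.3, 63.6 and 34.5 CPM in deleted cells in DMSO and 36.8, 33.4 and 31.8 CPM in intact cells in DMSO. Deleted cells in 1 µM lay below both DMSO groups and overlapped intact cells in 170 nM, and replicate 2 of deleted cells in DMSO stood far above all others. ZEB2 fell by 0.71 on the log2 scale with 1 µM in deleted cells (SE 0.21, edgeR adjusted p = 0.0186). The value was -0.39 without deleted DMSO replicate 2 (adjusted p = 0.0531), and the call was also lost without replicate 1 (-0.69, adjusted p = 0.0599) or 3 (-0.71, adjusted p = 0.0556) of deleted cells in 1 µM. With both libraries of high mitochondrial share left out it was -0.38 and passed, and the adjusted p over all alternatives ran from 1.24e-06 to 0.0599. For the deletion in DMSO the log2 fold change of ZEB2 was 0.40 (SE 0.21, adjusted p = 0.157), and it was 0.03 with those 2 libraries left out. Between the treated groups it was -0.33 (SE 0.21, adjusted p = 0.204). It passed without deleted DMSO replicate 2 (-0.36, adjusted p = 0.0276) or replicate 2 of intact cells in 170 nM (-0.53, adjusted p = 0.0437), with the GC trend removed (adjusted p = 0.0126) and with no filter (adjusted p = 0.0261). It was -0.22 without replicate 1 of intact cells in 170 nM (adjusted p = 0.434) and -0.23 without both libraries of high mitochondrial share (adjusted p = 0.115). The 170 nM effect was 0.02 (SE 0.21, adjusted p = 0.985), and -0.13 without those 2 libraries (adjusted p = 0.648). The difference of the effects was -0.73 (SE 0.29, adjusted p = 0.109), and it passed without deleted DMSO replicate 3 (-0.89, adjusted p = 0.0483) or replicate 2 of intact cells in 170 nM (-0.88, adjusted p = 0.0329), with the GC trend removed (adjusted p = 0.00837) and with no filter (adjusted p = 0.00291). It was -0.40 without deleted DMSO replicate 2 (adjusted p = 0.18) and -0.25 without both libraries of high mitochondrial share (adjusted p = 0.31).

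**Figure D4:**
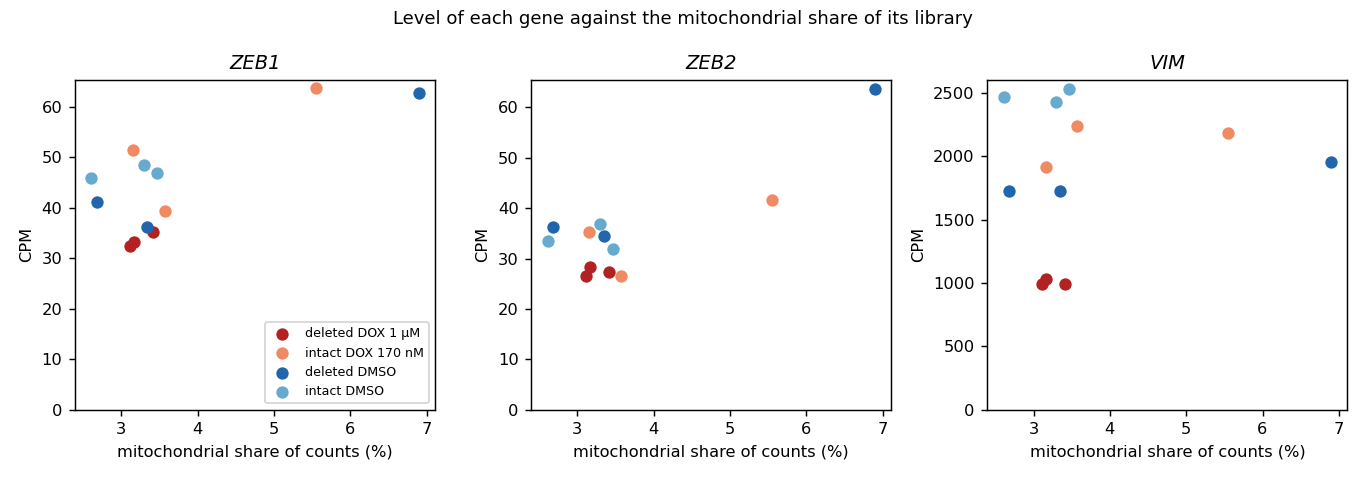
Level of ZEB1, ZEB2 and VIM in CPM (linear axis from 0) against the share of counts in mitochondrial genes, 1 point per library. The libraries at 6.90% and 5.54% hold the highest 2 values of ZEB1 and of ZEB2, at 62.7 and 63.7 CPM and at 63.6 and 41.7 CPM, and VIM stood at 1952 and 2182 CPM in them.

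ZEB1 and ZEB2 messages are the best-known targets of the miR-200 family, whose mature sequences are shown because they fall into 2 seed groups. The seed, bases 2 to 8, is in capitals (RefSeq, GRCh38.p14).
hsa-miR-141-3p: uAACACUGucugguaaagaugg
hsa-miR-200a-3p: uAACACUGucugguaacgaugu
hsa-miR-200b-3p: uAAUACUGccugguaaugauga
hsa-miR-200c-3p: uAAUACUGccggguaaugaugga
hsa-miR-429: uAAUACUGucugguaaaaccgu
The first pair share the seed AACACUG and the other 3 share AAUACUG. Mature microRNAs were not measured in these libraries. MIR200CHG, the host transcript of miR-200c and miR-141, had 6 counts over all 12 libraries, and MIR205HG, the host of a further ZEB-targeting microRNA, had 32 counts, so neither could be tested.

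VIM (ENSG00000026025.16; hg38 chromosome 10, 17228259 to 17237593, plus strand) was by far the most abundant of the 8 genes. It had 995, 1032 and 990 CPM in deleted cells in 1 µM and 2182, 2237 and 1915 CPM in intact cells in 170 nM. It had 1729, 1952 and 1723 CPM in deleted cells in DMSO and 2425, 2464 and 2526 CPM in intact cells in DMSO. Deleted cells in 1 µM lay lowest, and the DMSO libraries of each genotype lay above the treated ones, though intact libraries in 170 nM and deleted libraries in DMSO overlapped. VIM fell by 0.46 on the log2 scale in deleted cells in DMSO (SE 0.085, edgeR adjusted p = 0.001). It fell by 0.84 with 1 µM in deleted cells, to a level 1.79-fold lower (SE 0.086, edgeR adjusted p = 5.36e-06), and by 1.07, or 2.10-fold, between the treated groups (SE 0.086, edgeR adjusted p = 3.03e-07). With 170 nM in intact cells the value was -0.23 (SE 0.085, edgeR unadjusted p = 0.0191, adjusted p = 0.33). The libraries did not overlap, as for 19.4% of all genes. The difference of the effects was -0.61 (SE 0.12, edgeR adjusted p = 0.00299), and every call on VIM held under each alternative setting and without each library.

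Transcripts that lie antisense to VIM share exon bases with it, 641 with VIM-AS1 and 619 with AL133415.1, or 12.43% and 12% of the exon bases of VIM. VIM-AS1 had 3.39 to 8.17 CPM in the 12 libraries, a small part of the VIM level, and its value for 1 µM in deleted cells was -0.58 (SE 0.24, edgeR adjusted p = 0.0919). ZEB1-AS1 shares 366 bases (4.23%) with ZEB1 and ZEB2-AS1 1299 bases (5.18%) with ZEB2. ZEB1-AS1 averaged 5.82 ± 0.145 CPM in deleted cells in 1 µM and 3.63 ± 0.856 CPM in intact cells in 170 nM (SD, n = 3 each). It rose by 0.68 between the treated groups (log2, SE 0.18, edgeR adjusted p = 0.00607), where ZEB1 itself fell. ZEB2-AS1 fell with 1 µM in deleted cells (log2 fold change -2.12, SE 0.58, edgeR adjusted p = 0.0136), as ZEB2 did. Of 3 antisense and host transcripts tested, 1 passed there (33.3%, against 30.7% of all genes), and 0 to 2 fell over the alternatives. Without a known strand setting, reads of these pairs cannot be told apart where they overlap.

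PRRX1 (ENSG00000116132.12; hg38 chromosome 1, 170662728 to 170739419, plus strand) was all but absent. It had 22 counts over the 12 libraries, with no more than 6 in a library and 7 libraries at 0. Deleted cells had 0, 4 and 0 counts in 1 µM and 6, 6 and 0 counts in DMSO; intact cells had 0 counts in all libraries in 170 nM and 0, 2 and 4 counts in DMSO. Its highest level was 0.0888 CPM, and it was filtered out before the tests.

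Levels of different genes were compared per kb of exon, as reads per kb per 1000000 counts (RPKM). In deleted cells in 1 µM the order was VIM at 195, SNAI2 at 16.5, TWIST1 at 7.03, ZEB1 at 3.88 and TWIST2 at 3.42, followed by SNAI1 at 1.26 and ZEB2 at 1.09, the only neighbours whose libraries overlapped, with PRRX1 last. In intact cells in 170 nM it was VIM at 409, then TWIST1 at 8.65, TWIST2 at 7.99, ZEB1 at 5.95 and SNAI2 at 5.12, each overlapping its neighbour, then SNAI1 at 2.35 and ZEB2 at 1.38. In deleted cells in DMSO it was VIM at 349 and TWIST1 at 9.0, then ZEB1 at 5.39, TWIST2 at 4.99 and SNAI2 at 3.33, which overlapped in turn, and ZEB2 at 1.79 with SNAI1 at 1.42, which also overlapped. In intact cells in DMSO it was VIM at 479, TWIST1 at 9.71 and TWIST2 at 8.65, then SNAI2 at 5.81 and ZEB1 at 5.44, which overlapped, SNAI1 at 2.20 and ZEB2 at 1.36. SNAI2 was thus the leading factor in deleted cells in 1 µM and TWIST1 in both DMSO groups, while TWIST1 and TWIST2 overlapped in intact cells in 170 nM. The order depended in part on the length used. Over the longest annotated transcript in place of all exons, ZEB2 stood above SNAI1 in every group and barely above SNAI2 in deleted cells in DMSO (4.67 and 4.65). TWIST2 then stood at 10.7 and TWIST1 at 10.6 in intact cells in 170 nM, and the pair overlapped in intact cells in DMSO as well.

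By the smallest root mean square difference of centred log2(CPM + 1) over the 12 libraries, among 10891 genes, the genes most like each factor were as follows. SNAI2 was nearest to ANXA8L1 at 0.179, whose near-identical paralogs make its counts uncertain, GADD45A at 0.186 and CDH10 at 0.208, while the pattern of SNAI2 itself had a root mean square of 0.857. VIM (0.494) was nearest to SPARC at 0.0867, ANP32A at 0.0893 and NUDT3 at 0.0949. TWIST2 (0.516) was nearest to SNU13 at 0.0913, EHMT2 at 0.106 and DMAC1 at 0.115, and SNAI1 (0.306) to ARFIP2 at 0.0859, the pseudogene NOC2LP1 at 0.0912 and SUCLG1 at 0.0913. ZEB1 (0.311) was nearest to ZFR at 0.0523, CNOT7 at 0.0691 and ENAH at 0.0709, and ZEB2 (0.329) to ARSK at 0.0827, ERBIN at 0.0994 and PTPN12 at 0.0997. TWIST1 (0.187) was nearest to HNRNPA1L3 at 0.0747, SLCO3A1 at 0.0756 and RIPK2 at 0.0773, distances that are large beside its own small variation. SNAI2 thus had the widest pattern and, in absolute distance, the most distant neighbours of the 7 genes. Beside its own variation its nearest gene (0.179 beside 0.857) was closer than that of TWIST1 (0.0747 beside 0.187).

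Junction and polarity genes that the Snail and ZEB factors are known to repress moved in both directions. Of 32 listed epithelial genes 27 were tested. With 1 µM in deleted cells, where SNAI2 rose, 9 of them rose and 4 fell (48.1% called, against 30.7% of all genes), with a median log2 fold change of 0.26 against -0.02 for all genes. DSP, which encodes the desmosomal plaque protein desmoplakin, averaged 241 ± 13.9 CPM in deleted cells in 1 µM and 98.5 ± 18.3 CPM in deleted cells in DMSO (SD, n = 3 each; log2 fold change 1.29, SE 0.15, edgeR adjusted p = 1.71e-05). DSP was picked with its value known. OCLN, which encodes the tight junction protein occludin, averaged 3.26 ± 0.320 CPM in deleted cells in 1 µM and 8.33 ± 0.712 CPM in deleted cells in DMSO (log2 fold change -1.36, SE 0.11, edgeR adjusted p = 9.16e-07). Parts of OCLN are duplicated in the genome, so its counts are uncertain. The junction genes that rose and fell were thus different ones, and CDH1 stayed near 0 throughout.

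The promoters of OCLN, DSP and CRB3, which encodes a polarity protein of the Crumbs complex, are shown because they hold 1, 2 and 5 copies of the E-box that Snail and ZEB proteins bind, and because these genes were lower, higher and not called with 1 µM in deleted cells. CRB3 had a log2 fold change of -0.63 there (SE 0.44, edgeR adjusted p = 0.307) at 0.279 ± 0.120 CPM in deleted cells in 1 µM and 0.437 ± 0.0818 CPM in deleted cells in DMSO. Each window runs from 250 bases before to 50 bases after an annotated start, 5′ to 3′ on the plus strand (RefSeq, GRCh38.p14), and capitals mark CAGGTG or its complement CACCTG. The windows are chr5:69492297-69492596 for OCLN, the first of 2 listed for that gene, chr6:7541421-7541720 for DSP and chr19:6464021-6464320 for CRB3. The second OCLN window, which is not shown, held 2 copies.
OCLN: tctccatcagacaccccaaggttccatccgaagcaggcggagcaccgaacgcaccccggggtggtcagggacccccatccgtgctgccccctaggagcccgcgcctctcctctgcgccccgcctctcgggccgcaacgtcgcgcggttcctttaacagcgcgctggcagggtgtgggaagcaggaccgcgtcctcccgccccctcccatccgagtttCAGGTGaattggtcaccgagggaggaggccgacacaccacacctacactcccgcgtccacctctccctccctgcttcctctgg
DSP: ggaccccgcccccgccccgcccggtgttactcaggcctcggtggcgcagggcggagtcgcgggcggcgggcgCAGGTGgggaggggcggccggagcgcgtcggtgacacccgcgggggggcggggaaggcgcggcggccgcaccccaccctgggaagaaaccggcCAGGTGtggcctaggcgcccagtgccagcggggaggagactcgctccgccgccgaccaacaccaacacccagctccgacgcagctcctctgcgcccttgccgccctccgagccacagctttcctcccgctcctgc
CRB3: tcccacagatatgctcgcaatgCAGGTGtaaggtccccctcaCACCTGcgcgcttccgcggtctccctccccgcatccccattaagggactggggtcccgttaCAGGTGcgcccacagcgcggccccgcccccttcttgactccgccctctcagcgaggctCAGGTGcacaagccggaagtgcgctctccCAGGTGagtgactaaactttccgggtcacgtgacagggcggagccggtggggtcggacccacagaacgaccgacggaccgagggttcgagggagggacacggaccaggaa
The copy in OCLN begins 33 bases before the start, those in DSP 178 and 85 bases before it, and those in CRB3 228, 208, 147, 89 and 60 bases before it. Of all 35116 promoter windows of this length, 7231 or 20.6% held at least 1 of the 2 hexamers, which are each other's complement. Among the epithelial genes 14 of 23 windows did (60.9%; 18 of the 32 genes had a window), among 32 mesenchymal genes 4 of 25 (16%; 19 genes), and among the EMT factors and VIM 2 of 11 (18.2%; 5 of 8 genes). Both windows of the last set belonged to ZEB1. A match describes letters in the window and not a bound site.

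More mesenchymal genes fell than rose in each comparison in which VIM fell. Of 32 listed, which do not include VIM, 29 were tested. With 1 µM in deleted cells 2 rose and 15 fell (58.6% called, against 30.7% of all genes, median log2 fold change -0.64, against -0.02 over all genes). In deleted against intact cells in DMSO 7 rose and 14 fell (72.4% called, against 34.9%, median -0.45, against 0.04). Between the treated groups 6 rose and 17 fell (79.3% called, against 47.8%, median -0.57, against 0.02). SPARC, a matrix glycoprotein, averaged 470 ± 12.2 CPM in deleted cells in 1 µM and 926 ± 5.48 CPM in deleted cells in DMSO (log2 fold change -0.98, SE 0.07, edgeR adjusted p = 2.04e-07). Among those that rose was ACTA2, smooth muscle actin, at 44.5 ± 2.54 and 11.6 ± 0.649 CPM in the same groups (log2 fold change 1.94, SE 0.10, edgeR adjusted p = 7.23e-09). FN1, fibronectin, had a value of -0.18 there (SE 0.10, adjusted p = 0.224). In DMSO, MMP2, a gelatinase, averaged 3.05 ± 0.481 CPM in deleted cells and 28.1 ± 3.06 CPM in intact cells (log2 fold change -3.20, SE 0.14, edgeR adjusted p = 4.85e-09). CDH11, a mesenchymal cadherin, averaged 0.0761 ± 0.0773 CPM in deleted cells and 10.8 ± 0.475 CPM in intact cells, a fold that depends on the prior count at such a low level. The hyaluronan receptor gene CD44 had a value of 0.10 (SE 0.09, adjusted p = 0.398). Epithelial genes did not show the opposite movement in DMSO, where 5 rose and 10 fell (55.6% called, against 34.9% of all genes, median -0.18). OCLN (-1.50, edgeR adjusted p = 4.01e-07) was among the lower ones. Between the treated groups 8 epithelial genes rose and 10 fell (66.7% called, against 47.8% of all genes, median -0.22).

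**Figure D5:**
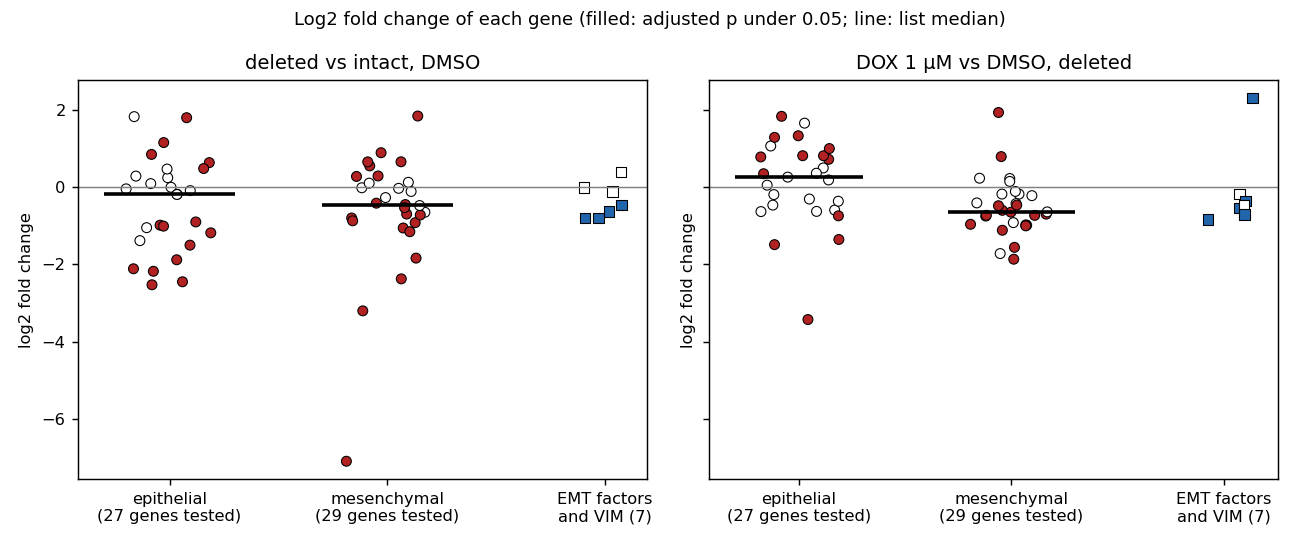
Log2 fold change of each tested epithelial gene, mesenchymal gene and EMT factor or VIM, for deleted against intact cells in DMSO (left) and 1 µM doxorubicin against DMSO in deleted cells (right); filled points passed an adjusted p of 0.05 and lines are list medians. Mesenchymal medians lie at -0.45 and -0.64 and epithelial medians at -0.18 and 0.26, and SNAI2 stands alone at 2.31 on the right.

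With 170 nM in intact cells, 2 mesenchymal genes fell, THBS1 among them, and no gene of the other lists passed the edgeR test, which passed 13 genes in all. THBS1, thrombospondin, averaged 288 ± 22.5 CPM in intact cells in 170 nM and 415 ± 8.36 CPM in intact cells in DMSO (log2 fold change -0.53, SE 0.08, edgeR adjusted p = 0.0368). The call on THBS1 was lost in 12 of 23 alternatives, single libraries of other groups left out among them, with adjusted p from 6.67e-08 to 0.271.

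Partners of these factors gave mixed counts. Among 22 corepressors and chromatin enzymes that Snail, ZEB and Twist proteins recruit, 3 rose and 3 fell with 1 µM in deleted cells (27.3% called, against 30.7% of all genes). In deleted against intact cells in DMSO 3 rose and 5 fell (36.4%, against 34.9% of all genes). Between the treated groups 5 rose and 6 fell, a share close to the 47.8% of all genes. The list thus changed about as often as genes in general, and the 3 genes named next were picked by lowest p. EHMT2, a histone H3 lysine methyltransferase that Snail recruits, averaged 30.7 ± 1.08 CPM in deleted cells in 1 µM and 64.9 ± 5.44 CPM in intact cells in 170 nM (log2 fold change -1.08, SE 0.10, edgeR adjusted p = 9.6e-07). In DMSO the histone deacetylase gene HDAC1 averaged 152 ± 9.01 CPM in deleted cells and 230 ± 4.59 CPM in intact cells (-0.59, edgeR adjusted p = 3.42e-05), and the deacetylase gene SIRT1 176 ± 20 and 88.3 ± 1.72 CPM (0.99, edgeR adjusted p = 1.99e-05). Of the 7 E proteins, which pair with TWIST1 and TWIST2, and ID proteins, which titrate E proteins, none rose and 4 fell with 1 µM in deleted cells (57.1% called, against 30.7% of all genes, median -0.34). Between the treated groups none rose and 5 fell (71.4%, against 47.8% of all genes, median -0.34). Over the alternatives 2 to 6 and 2 to 5 fell, and none rose in any of them. TCF4, an E protein, averaged 9.48 ± 0.460 CPM in deleted cells in 1 µM, 23.8 ± 2.91 CPM in deleted cells in DMSO and 14.8 ± 1.03 CPM in intact cells in DMSO. It thus fell with 1 µM (-1.33, edgeR adjusted p = 3.26e-06) and stood higher in deleted than in intact cells in DMSO (0.69, edgeR adjusted p = 0.000899). ID2 averaged 6.5 ± 1.04 CPM in deleted cells and 20.1 ± 1.14 CPM in intact cells in DMSO (-1.63, edgeR adjusted p = 4.22e-07).

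Among 17 regulators of the stability of these proteins, such as the ubiquitin ligases and deubiquitinases of Snail, 8 rose and none fell in deleted against intact cells in DMSO (47.1% called, against 34.9% of all genes, median 0.30, against 0.04). Between the treated groups 7 rose and none fell (41.2%, against 47.8% of all genes, median 0.12, against 0.02). In 13 of 23 alternatives 1 fell in DMSO, and between the treated groups 4 fell with the GC trend removed, 2 without replicate 2 of intact cells in 170 nM and 1 without deleted DMSO replicate 2. USP11, a deubiquitinase, averaged 97.4 ± 8.96 CPM in deleted cells and 67.6 ± 1.76 CPM in intact cells in DMSO (0.53, edgeR adjusted p = 0.000381). FBXL14, the F-box protein that directs degradation of Snail and Twist proteins, averaged 7.55 ± 0.259 and 5.0 ± 0.554 CPM in the same groups (0.59, edgeR adjusted p = 0.00161). With 1 µM in deleted cells 3 rose and 1 fell (23.5% called, against 30.7% of all genes), led by the F-box gene FBXW7 at 57.1 ± 3.53 CPM in deleted cells in 1 µM and 23.4 ± 1.95 CPM in deleted cells in DMSO (1.29, edgeR adjusted p = 5.23e-07). Whether protein levels moved was not measured.

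Of 20 other EMT-linked transcription factors 17 were tested, and 7 rose and 4 fell with 1 µM in deleted cells (64.7% called, against 30.7% of all genes, median 0.16). SNAI3, the least studied member of the Snail family, had 2.37 to 2.84 CPM in deleted cells in 1 µM, against 0.237 to 0.379 CPM in deleted cells in DMSO, 0.207 to 0.447 CPM in intact cells in 170 nM and 0.224 to 0.344 CPM in intact cells in DMSO. Like SNAI2 it stood above all other libraries in that group (1 µM against DMSO, log2 fold change 3.08, SE 0.31, edgeR adjusted p = 4.33e-06). Its CPM was near that of SNAI1 there, without scaling for length. MSX2, a homeobox factor, averaged 15.4 ± 1.18 CPM in deleted cells in 1 µM and 5.96 ± 0.675 CPM in deleted cells in DMSO (1.37, edgeR adjusted p = 1.4e-06). In DMSO 4 rose and 6 fell (58.8% called, against 34.9% of all genes, median -0.10). RUNX2, a factor of bone and matrix gene control, averaged 6.79 ± 1.72 CPM in deleted cells and 42.1 ± 0.949 CPM in intact cells (-2.63, edgeR adjusted p = 1.23e-07), and TBX3, a T-box repressor, 27.6 ± 1.34 and 65.0 ± 2.0 CPM (-1.24, edgeR adjusted p = 4.85e-07).

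Of 24 ligands, receptors and mediators that induce the factors 23 were tested, and 8 rose and 5 fell with 1 µM in deleted cells (56.5% called, against 30.7% of all genes, median 0.11). JAG1, a Notch ligand, averaged 61.4 ± 1.89 CPM in deleted cells in 1 µM and 17.7 ± 1.70 CPM in deleted cells in DMSO (1.79, edgeR adjusted p = 5.73e-08), and LIF, a cytokine of the interleukin 6 family, 36.5 ± 1.42 and 10.4 ± 2.59 CPM (1.80, edgeR adjusted p = 5.34e-07). In DMSO 5 rose and 9 fell (60.9% called, against 34.9% of all genes, median -0.20). WNT5A, a non-canonical Wnt ligand, averaged 12.8 ± 0.939 CPM in deleted cells and 59.6 ± 1.27 CPM in intact cells (-2.22, edgeR adjusted p = 2.56e-08), and LIF 10.4 ± 2.59 and 42.8 ± 0.233 CPM (-2.03, edgeR adjusted p = 2.77e-07). The signs of LIF were those of SNAI2, lower in deleted cells in DMSO and higher with 1 µM. With 1 µM, however, LIF at 36.5 CPM stayed below the 42.8 CPM of intact cells in DMSO, while SNAI2 lay above all other libraries. KRT19, a filament gene, had the same pair of signs as well (-1.92 and 1.67). How many genes had these signs was not counted.

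Other filament genes went in both directions. Of 20 genes for intermediate filaments and their linkers, which do not include VIM, 5 rose and 3 fell with 1 µM in deleted cells (40.0% called, against 30.7% of all genes, median 0.20). In deleted against intact cells in DMSO none rose and 2 fell (10.0%, against 34.9% of all genes, median -0.05). Over the alternatives 0 to 2 rose and 1 to 6 fell in DMSO. SYNM, which encodes synemin, a protein that assembles with vimentin, averaged 132 ± 0.837 CPM in deleted cells in 1 µM and 69.8 ± 5.26 CPM in deleted cells in DMSO (0.92, edgeR adjusted p = 9.43e-06). The simple keratin gene KRT19 averaged 1.5 ± 0.291 and 0.469 ± 0.0938 CPM in the same groups (1.67, edgeR adjusted p = 0.000233). Of the same 20 genes 4 rose and 3 fell between the treated groups (35.0% called, against 47.8% of all genes, median 0.04). LMNB1, for lamin B1, averaged 174 ± 3.65 CPM in deleted cells in 1 µM and 247 ± 20.7 CPM in intact cells in 170 nM (-0.50, edgeR adjusted p = 0.000239).

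Markers of other cells were low in all libraries. Summed over 12 blood cell markers, levels were 4.09 to 5.84 CPM in deleted cells in 1 µM, 1.70 to 2.18 CPM in intact cells in 170 nM, 1.83 to 2.28 CPM in deleted cells in DMSO and 1.85 to 2.25 CPM in intact cells in DMSO. The higher sum came mainly from the integrin gene ITGAM, at 3.68 ± 0.656 CPM in deleted cells in 1 µM and 0.411 ± 0.0827 CPM in deleted cells in DMSO. Of 7 markers tested it alone passed (3.16, edgeR adjusted p = 1.21e-05), or 14.3% against 30.7% of all genes. Summed over 8 endothelial markers, levels were 1.29 to 1.92, 0.903 to 1.10, 0.557 to 0.873 and 0.760 to 0.814 CPM in the same order of groups. Of 4 endothelial markers tested 2 rose with 1 µM in deleted cells, against 17.5% of all genes. VWF, von Willebrand factor, averaged 0.894 ± 0.210 CPM in deleted cells in 1 µM and 0.328 ± 0.120 CPM in deleted cells in DMSO (1.44, edgeR adjusted p = 0.0267). The transcription factor gene ERG averaged 0.192 ± 0.0466 and 0.0341 ± 0.0478 CPM (2.51, edgeR adjusted p = 0.0273), a fold that depends on the prior count at such a level. Over the alternatives 0 to 2 of the 4 passed. Both sums were highest in deleted cells in 1 µM, as SNAI2 was. In DMSO they overlapped between deleted and intact cells, where SNAI2 was lower in deleted cells. Single markers moved in both directions there. Of 4 endothelial markers tested 1 rose and 2 fell (75.0% called, against 34.9% of all genes). Of 7 blood cell markers tested 1 rose and 1 fell (28.6%). Each of these counts was 0 in some alternatives. Any part of other cells in the increase of SNAI2 was not tested. The 32 epithelial genes summed to 419 to 442 CPM in deleted cells in 1 µM, 319 to 323 CPM in intact cells in 170 nM, 234 to 256 CPM in deleted cells in DMSO and 284 to 290 CPM in intact cells in DMSO, of which DSP was the largest part in treated deleted cells.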

How the data were processed

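RNA was measured in 12 libraries, 4 groups of 3. The authors deposited raw counts, with a column for each library. The submitters' processing notes name STAR 2.7.9a, featureCounts (Subread 2.0.1) and the hg38 build. For the counting, neither the gene annotation nor the strandedness is given in the sources used here. Of 60660 gene identifiers 60597 had a symbol and 58385 a position in GENCODE 29. Genes that passed filterByExpr (21803) were scaled by TMM and tested in a single quasi-likelihood model of the 4 groups (edgeR 4.0.16, R 4.3.3), which was also tested on simulated data. P-values were adjusted by Benjamini-Hochberg over all 21803 genes, at a threshold of 0.05. The standard error is the log2 fold change over the root of F. CPM are scaled counts per 1000000.

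Alternatives were scaling by RLE or by library totals, omission of the filter or a minimum of 1 CPM in 3 libraries, limma-voom (limma 3.58.1), DESeq2 1.42.0, a fit of each pair of groups by itself, a replicate block, omission of the 10 most abundant genes, loess offsets on GC content (span 0.5), omission of the 2 libraries of highest mitochondrial share, and omission of each library. Chi-square per degree of freedom between libraries of a group was 8.42 to 204, so none was counted as a duplicate. Genes of a list were named by lowest p, up to 2 that passed, or by abundance among those that did not; not all are printed, and some results are not reported here. The genes and lists were chosen with earlier results of these data known.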

Additional observations from a re-analysis of the deposited data

Results flagged for a closer look

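The doxorubicin effect in deleted cells (1 µM) less that in intact cells (170 nM) was tested within 1 edgeR fit, and the results below passed; dose and genotype change together in this difference. Among the EMT factors and VIM the log2 difference was 2.50 for SNAI2 (SE 0.288, edgeR adjusted p = 4.08e-05) and -0.61 for VIM (SE 0.121, edgeR adjusted p = 0.00299). Of the epithelial genes it was -1.28 for OCLN and 0.82 for DSP. Of the mesenchymal genes it was 2.28 for ACTA2, -0.73 for SPARC and -0.76 for MMP2. Of the transcription factors it was 3.05 for SNAI3, 1.15 for MSX2, 1.10 for SOX4, 1.0 for TBX3, -0.49 for FOXM1 and -1.02 for the E protein gene TCF4. Of the ligands it was 2.22 for LIF, 2.08 for BMP7, 2.0 for JAG1 and -0.52 for WNT5A, the last near the threshold (SE 0.166, edgeR adjusted p = 0.0476). Of the chromatin partners and stability regulators it was 1.16 for FBXW7, 0.56 for EED, 0.55 for USP37 and -0.40 for SMARCA4. Of the filament genes it was 2.22 for KRT19 and 0.82 for SYNM, and for ITGAM, a blood cell marker, it was 3.40. The differences for USP37 (edgeR adjusted p = 0.0491) and SMARCA4 (edgeR adjusted p = 0.0316) missed the threshold in 9 and 8 of 22 alternatives, where the adjusted p ran from 0.00268 to 0.113 and from 0.00241 to 0.182. Groups of 3 libraries were too small to be tested for outlying samples.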

How the results depend on the processing

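Of 798 recomputed values of the 7 genes, 758 stayed on their side of the threshold, 19 lost a call, 21 gained one and 0 reversed; the calls on SNAI2 and VIM held throughout. The count of genes that passed for 170 nM in intact cells, 13, was 0 with only the groups compared, 25 with limma-voom, 48 with library totals, 65 with the 1 CPM filter, 195 without the 2 libraries of high mitochondrial share, 196 with no filter, 467 with DESeq2 and 569 with the GC trend removed, and 0 to 220 with single libraries left out; the cause was not tested. The genes passing in the difference of effects, 3705, were 6607 with the GC trend removed, and of the EMT factors and VIM 6 then passed, and 4 with no filter, in place of 2. With single libraries left out, 2 to 6 of the 7 genes passed for 1 µM in deleted cells and 2 to 4 in the difference: for 1 µM, 2 without replicate 1 and 3 without replicate 2 of the treated group, and 3 without deleted DMSO replicate 2; in the difference, 4 without replicate 2 of intact cells in 170 nM. Library totals moved the median of all genes in the difference by 0.11.

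No shared deviation was seen in libraries with the same replicate number (correlations from -0.210 to 0.0652, -0.224 to 0.104 and -0.0736 to 0.118). GC trends of single libraries are part of these deviations and could hide one, so whether the numbers pair samples is not known. With the replicate block, 0 genes passed for 170 nM in intact cells, and TWIST1 no longer passed for 1 µM in deleted cells (-0.36, adjusted p = 0.0572) or between the treated groups (-0.30, adjusted p = 0.0748); no other call on these genes changed. Depth limits PRRX1, at 22 counts in all.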
